A study of Mus musculus with 16 samples.

Results

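The genes described here are 10 liver genes of de novo lipogenesis, taken by name: Acly, Me1, Acaca, Acacb, Fasn, Elovl6, Scd1, Srebf1, Thrsp and Pnpla3. Earlier results of these data were known when the genes were listed. All 10 were found among the 25006 gene identifiers of the count table, and 9 of them were among the 13180 genes with enough counts to test. Pnpla3 was the one left out by the filter on low counts. The measurements come from poly(A) RNA of C57BL/6 mouse liver, 16 libraries in 4 groups of 4. Each mouse received 1 oral gavage of a fast food slurry or a chow slurry, and the liver was taken 4 h later. The groups were fast food with antibiotic drinking water, chow with antibiotic drinking water, fast food with control drinking water, and chow with control drinking water. Which antibiotics were used, at what dose and for how long, is not stated in the labels. C57BL/6 is an inbred laboratory strain, and the labels name no genetic change in any group. The labels number the replicates within a group without stating that each is a separate mouse, so the p-values may measure only the spread between these samples.

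De novo lipogenesis is the route by which hepatocytes turn sugar carbon into fatty acid. Citrate exported from mitochondria is split to acetyl-CoA, which is carboxylated to malonyl-CoA, condensed into palmitate, and then elongated and desaturated before it is built into glycerolipids. In the fed liver insulin raises the transcription of these enzymes through SREBP-1c, the product of Srebf1, and glucose raises it through ChREBP, the product of Mlxipl. The design sets an early response of the liver to a fast food or chow meal against the presence or absence of antibiotics in the water.

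The 9 tested genes did not move as one block. In mice on antibiotic water, the fast food meal was accompanied by higher Scd1 and higher Acacb than the chow meal. With the chow meal, antibiotic water was accompanied by lower Scd1 and lower Me1, while the log2 differences of Fasn (0.81) and Thrsp (1.90) did not pass the test. With the fast food meal, antibiotic water was accompanied by higher Acacb. On control water, no lipogenesis gene passed the test between the meals. Both Scd1 differences, and the Acacb difference between the waters, no longer passed when some single libraries were left out. Those of Me1, and of Acacb between the meals, passed on every such omission. The Scd1 difference between the meals had an edgeR adjusted p of 0.0493, and its groups overlapped.

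As background for these counts, a gene is called where its Benjamini-Hochberg adjusted p from edgeR's quasi-likelihood test, taken over all 13180 genes, is under 0.05. Between the meals on antibiotic water, 2 of the 9 lipogenesis genes were called, both higher after fast food, where 13.7% of all tested genes were called and 7.78% were called higher. Between the meals on control water 0 of 9 were called, against 0.577% of all genes, with 1 of the 9 at an unadjusted p under 0.05. DESeq2 called 1 of them in that comparison. Between antibiotic and control water with the chow meal, 2 of 9 were called, both lower, against 23.8% of all genes called and 13.2% called lower. There 2 of 9 lies near the share of all genes called. Between the waters with the fast food meal, 1 of 9 was called, higher with antibiotic, against 5.99% of all genes called and 3.77% called higher. The difference between the 2 meal effects (the meal by water interaction) was called for 1 of 9, against 3.94% of all genes called and 2.36% called with a positive sign, which was its sign. The median log2 fold change of the 9 genes was -0.06 for the meal on antibiotic water (0.032 over all genes) and -0.23 for the meal on control water (-0.024 over all genes). It was -0.02 for the water with chow (-0.006 over all genes) and 0.45 for the water with fast food (0.018 over all genes). Each group enters more than one of these comparisons, so they share libraries and are not independent of each other.

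Libraries held 8954378 to 18954655 counts. In 7 of them 4 features that collect ribosomal RNA-like reads (Lars2, Mir6236, Gm20594 and Mir6240) took 2.45% to 8.42% of the counts, and in the remaining 9 they took 0.12% to 0.587%. The 7 were fast food antibiotic replicates 1, 2 and 4, chow antibiotic replicates 2 and 4, and chow control replicates 1 and 2. They had the lowest total counts. Fast food antibiotic replicate 2, chow antibiotic replicate 4 and chow control replicate 2 led their groups in acute phase score (2.06, 2.44 and 1.27, as mean log2 deviations from the average library over 15 genes). In 9 genes that PPAR-alpha or fasting induces, fast food antibiotic replicate 2 scored -0.96, inside the range of the chow antibiotic libraries (-1.32 to -0.78), while the other 3 libraries of its group scored 0.05 to 0.39. Hepatocyte markers were high in every library, with summed levels of 106399 to 231024 CPM (counts scaled to a common library size) over 7 genes. All CPM values below are scaled by TMM factors. Because whole liver was counted, fewer cells of a type and less RNA per cell cannot be told apart.

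SREBP, NF-Y and Sp1 are known regulators of this gene family. The stretches of DNA just upstream of the transcription starts are shown for 4 of the genes whose transcripts changed or spread widely among the antibiotic libraries. Each is the 250 bases before a RefSeq start on GRCm38.p6, written 5′ to 3′ on the gene's own strand. The window of Fasn is chr11:120824548-120824797 and that of Thrsp is chr7:97417551-97417800, both on the minus strand. The window of Acacb is chr5:114165268-114165517 on the plus strand, inside the annotated span of the gene, and that of Me1 is chr9:86695915-86696164 on the minus strand. Capitals mark matches, on either strand, to ATCACCC (an SREBP site core), CCAAT (the NF-Y box) or GGGCGG (the GC box bound by Sp1).
Fasn: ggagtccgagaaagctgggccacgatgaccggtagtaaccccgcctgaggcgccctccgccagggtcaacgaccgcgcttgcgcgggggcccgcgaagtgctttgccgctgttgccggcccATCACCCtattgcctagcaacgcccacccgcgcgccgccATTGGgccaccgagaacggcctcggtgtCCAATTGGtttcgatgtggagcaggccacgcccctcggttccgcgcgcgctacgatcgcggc
Thrsp: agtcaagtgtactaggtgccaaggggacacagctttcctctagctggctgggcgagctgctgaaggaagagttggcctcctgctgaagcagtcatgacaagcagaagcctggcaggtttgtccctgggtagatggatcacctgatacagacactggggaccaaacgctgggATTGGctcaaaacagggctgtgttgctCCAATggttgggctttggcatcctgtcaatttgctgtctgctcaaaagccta
Acacb: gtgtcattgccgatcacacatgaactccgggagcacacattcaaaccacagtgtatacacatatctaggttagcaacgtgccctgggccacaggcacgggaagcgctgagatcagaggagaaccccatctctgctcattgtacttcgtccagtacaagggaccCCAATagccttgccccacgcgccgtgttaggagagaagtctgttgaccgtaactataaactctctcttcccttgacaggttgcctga
Me1: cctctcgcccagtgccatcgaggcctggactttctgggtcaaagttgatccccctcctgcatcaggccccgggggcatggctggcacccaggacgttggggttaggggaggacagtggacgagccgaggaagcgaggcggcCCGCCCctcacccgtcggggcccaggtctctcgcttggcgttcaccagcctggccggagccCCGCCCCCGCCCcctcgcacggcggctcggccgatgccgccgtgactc
The Fasn window held 1 ATCACCC match, 129 bases before the start, and 3 CCAAT matches at 90, 62 and 59 bases, of which the last 2 overlap as CCAATTGG. The Thrsp window held 2 CCAAT matches, 79 and 52 bases before the start, and the Acacb window held 1, at 87 bases. The Me1 window held 3 GGGCGG matches, at 109, 48 and 42 bases. Over all 32851 windows of the same length in the RefSeq table, 2.28% held ATCACCC, 33.8% held CCAAT and 32.7% held GGGCGG. The E-box CACGTG (6.02% of all windows) and the DR4 repeat of LXR (0.0152%) had no match in these 4 windows. The table had windows for 9 of the 10 genes, 12 windows in all, and none for Scd1. Among these 12, ATCACCC was found only in the Fasn window. Acaca also spread widely among the antibiotic libraries, and its only window (chr11:84195188-84195437, plus strand), not shown, held no match to any of these motifs. That window lies inside the annotated span of the gene, and none was available at the start of the span. The Elovl6 window, not shown, held no match to any of these motifs either. A further Me1 window (chr9:86687278-86687527), not shown, held 1 CCAAT match 208 bases before its start and no GGGCGG match. A match to such short letters is a description of the sequence only.

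**Figure D1:**
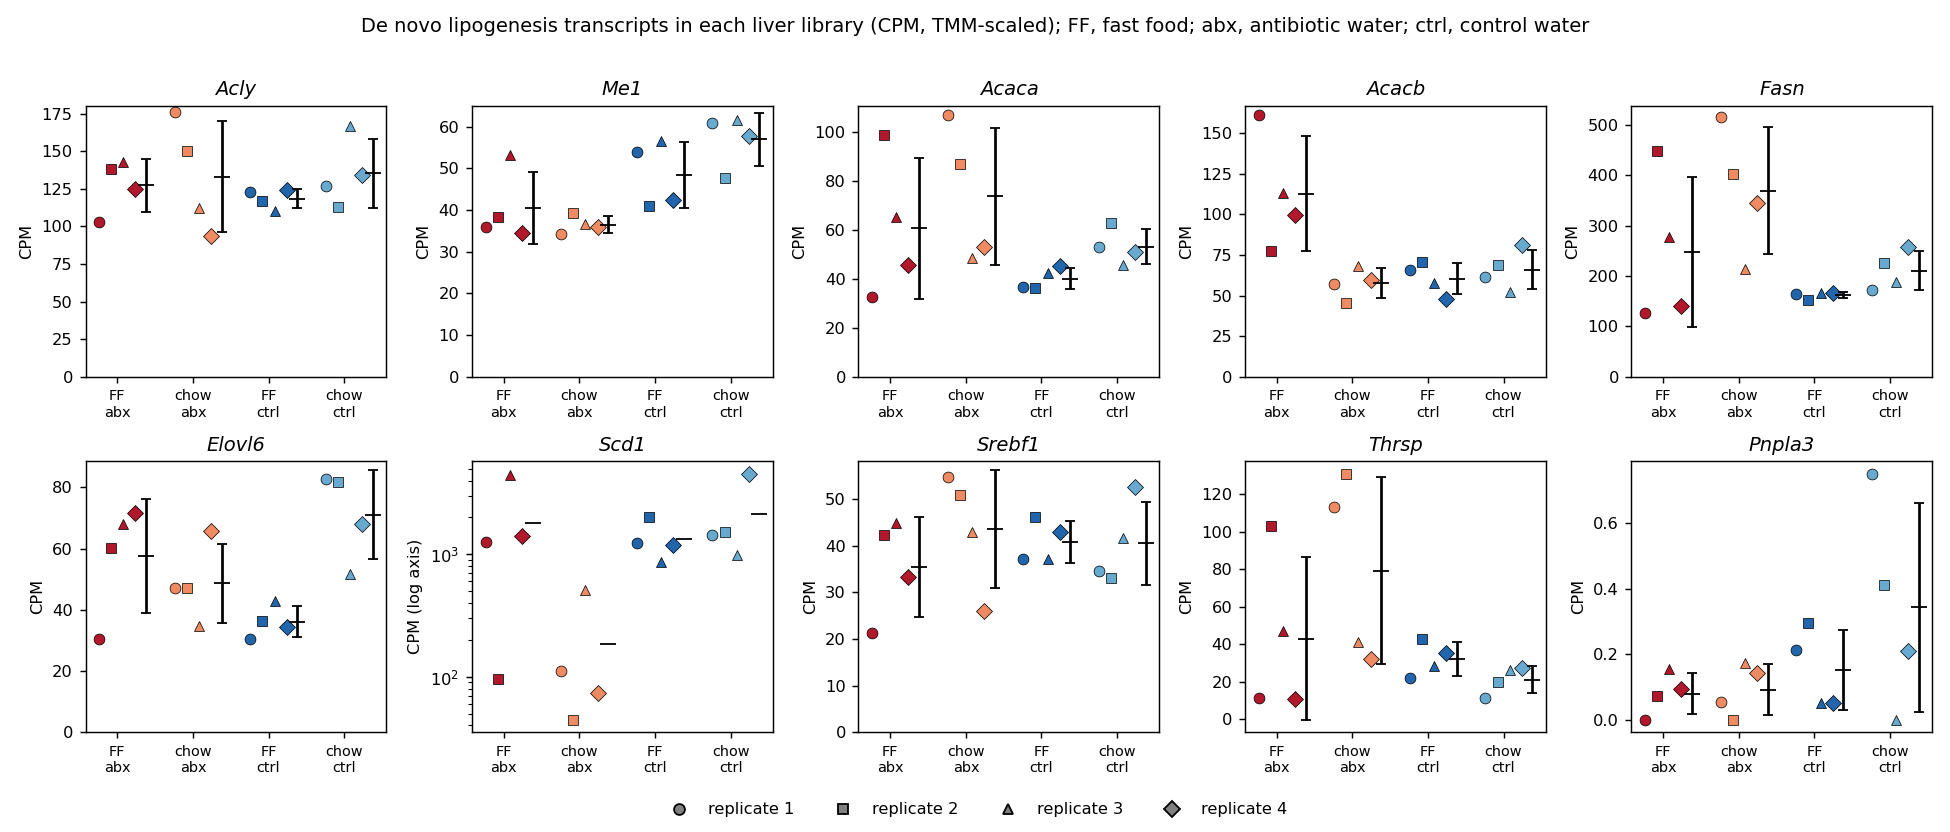
Level of each of the 10 genes in every library, in TMM-scaled CPM, with 1 panel per gene. Points are libraries (shape gives the replicate number), bars are the mean and SD of 4 libraries (mean alone for Scd1, on a log axis), and groups run from fast food antibiotic on the left to chow control on the right. Scd1 is 44.4 to 508 CPM in the chow antibiotic libraries and 95.0 CPM in fast food antibiotic replicate 2, and 859 CPM or more in the other 11.

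Levels per kilobase of exon put Scd1 first in every group. Its mean was 370 ± 382 CPM per kb with fast food and antibiotic, 37.8 ± 44.5 with chow and antibiotic, 271 ± 99.8 with fast food and control water, and 434 ± 335 with chow and control water (SD, n = 4 each). In the chow antibiotic livers the next genes, Thrsp at 36.2 ± 22.9, Fasn at 33.8 ± 11.5 and Acly at 25.2 ± 7.02 CPM per kb, lay within their spread of Scd1 and of each other. In the other 3 groups Acly (22.5 to 25.6 CPM per kb as group means) and Fasn (14.8 to 22.7) ranked next, and Scd1 was above them by more than its SD in the control water groups. Me1, Elovl6, Srebf1 and Acacb had group means of 5.6 to 14.8 CPM per kb, and Acaca was lower than these in every group, at 2.35 to 4.33 CPM per kb. The Acaca length counts all annotated isoforms and comes to 17074 bases, which lowers its value per kb.

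Acly (ENSMUSG00000020917, chromosome 11: 100476353 to 100528000) encodes ATP citrate lyase, which makes cytosolic acetyl-CoA from citrate. It passed no test in the design. Its CPM was 103, 138, 143 and 125 with fast food and antibiotic (replicates 1 to 4), and 176, 150, 112 and 93.9 with chow and antibiotic. On control water it was 123, 117, 110 and 124 CPM with fast food, and 127, 113, 167 and 134 CPM with chow. The groups overlapped in every comparison, with log2 fold changes between -0.19 and 0.10 and the smallest edgeR adjusted p at 0.746. The chow antibiotic libraries were the most spread, with an SD of 37.0 CPM around a mean of 133.

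Me1 (ENSMUSG00000032418, chromosome 9: 86581371 to 86695953) encodes the cytosolic malic enzyme, a source of NADPH for fatty acid synthesis. Its CPM was 36.0, 38.3, 53.3 and 34.4 with fast food and antibiotic, and 34.3, 39.3, 36.6 and 35.9 with chow and antibiotic. With fast food and control water it was 53.9, 40.9, 56.5 and 42.4 CPM, and with chow and control water 60.8, 47.6, 61.6 and 57.8 CPM. All 4 chow antibiotic libraries lay below all 4 chow control libraries, a separation that 24.8% of all tested genes showed in that comparison. Me1 fell by 0.64 on the log2 scale with antibiotic in the chow groups (SE 0.14, edgeR adjusted p = 0.00452), and it passed the test without any single library (adjusted p 0.00323 to 0.018). In the libraries with a high ribosomal-like share alone (2 in each group) the difference was -0.50 with an adjusted p of 0.196. With the fast food meal the water difference was -0.25 ± 0.14 (SE, adjusted p = 0.272), and the test of the difference between these 2 effects did not pass (0.39 ± 0.20, adjusted p = 0.287). Exons of the antisense gene A330041J22Rik overlap Me1 and held 84 counts over all 16 libraries, against 1959 to 3781 for Me1 in each group.

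Acaca and Acacb encode the 2 acetyl-CoA carboxylases. ACC1, from Acaca, makes the cytosolic malonyl-CoA that fatty acid synthase uses, and ACC2, from Acacb, sits at the mitochondrial surface, where malonyl-CoA restrains the entry of fatty acids for oxidation. Acacb (ENSMUSG00000042010, chromosome 5: 114146535 to 114250761) was 161, 77.6, 113 and 99.7 CPM with fast food and antibiotic, and 57.0, 45.5, 68.3 and 59.8 CPM with chow and antibiotic. On control water, fast food livers held 65.6, 70.5, 57.8 and 48.1 CPM and chow livers 61.7, 68.8, 52.2 and 81.1 CPM. The fast food antibiotic libraries were all above those of the chow antibiotic group and all above those of the fast food control group, while the other 3 groups overlapped. The first separation was shown by 14.5% of all genes and the second by 18.4%.

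Acacb rose with the fast food meal on antibiotic water by 0.97 ± 0.20 on the log2 scale, a 1.96-fold difference (SE, edgeR adjusted p = 0.00738), and it stayed past the threshold without any single library (adjusted p 0.000618 to 0.0283). A fit to those 2 groups alone gave 0.95 with an adjusted p of 0.0508, and the high-share libraries alone gave 1.08 with an adjusted p of 0.185. Acacb also rose with antibiotic water in the fast food groups, by 0.90 ± 0.20 (1.86-fold, adjusted p = 0.0225). That call was lost without fast food control replicate 1 (0.94, adjusted p = 0.0619) or replicate 3 (0.88, adjusted p = 0.0745). It was also lost with the ribosomal-like share as a covariate (0.99, adjusted p = 0.218), and all fast food control libraries have a low share while 3 of the 4 fast food antibiotic libraries have a high one, so no fit within 1 side of that split could be made. On control water the meal difference of Acacb was -0.12 ± 0.20 (adjusted p = 0.872). The interaction, 1.09 ± 0.28, passed the test (adjusted p = 0.0391). It passed without fast food antibiotic replicate 2, or replicate 3 of either chow group, and it failed without any one of the other 13 libraries (adjusted p 0.00555 to 0.084 over all 16 omissions). It also failed with the replicate number as a block (1.08, adjusted p = 0.0645), with the ribosomal-like share as a covariate (1.17, adjusted p = 0.0826) and with that share's high-low split in the model (1.18, adjusted p = 0.0633).

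Acaca (ENSMUSG00000020532, chromosome 11: 84129672 to 84401651) behaved differently from Acacb. Its CPM was 32.8, 98.8, 65.2 and 45.9 with fast food and antibiotic, and 107, 87.1, 48.4 and 53.0 with chow and antibiotic. With fast food and control water it was 36.9, 36.1, 42.3 and 45.1 CPM, and with chow and control water 52.9, 63.0, 45.8 and 51.2 CPM. The antibiotic groups were widely spread, with SDs of 28.7 CPM (fast food) and 28.1 CPM (chow), against 4.32 and 7.22 CPM on control water. The 4 fast food control libraries lay just under the 4 chow control libraries, yet the difference of -0.41 ± 0.29 did not pass (SE, edgeR adjusted p = 0.672). No comparison of Acaca passed, the smallest adjusted p being 0.211 for antibiotic water with fast food (0.60 ± 0.29).

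Fasn (ENSMUSG00000025153, chromosome 11: 120805846 to 120824547) encodes fatty acid synthase, which builds palmitate from acetyl-CoA and malonyl-CoA with NADPH. Its CPM was 126, 448, 277 and 141 with fast food and antibiotic, and 517, 403, 215 and 345 with chow and antibiotic. On control water, fast food livers held 164, 153, 167 and 166 CPM and chow livers 172, 226, 188 and 257 CPM. The fast food control libraries were the tightest, with a mean of 162 ± 6.41 CPM, and all lay below the chow control libraries (211 ± 38.5 CPM, SD, n = 4 each). That gap of -0.38 ± 0.34 did not pass the test (SE, edgeR adjusted p = 0.75). On control water 3 of the 9 tested genes (Acaca, Fasn and Elovl6) showed such a separation, each lower after fast food, where 10.3% of all genes separated.

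In the chow groups Fasn was higher with antibiotic water by 0.81 ± 0.34 on the log2 scale, with an overlap through chow antibiotic replicate 3, and did not pass (edgeR adjusted p = 0.0977). It passed with DESeq2 (0.83, adjusted p = 0.0412), in a fit to the 2 groups alone (0.83, adjusted p = 0.0415) and without chow antibiotic replicate 3 (1.00, adjusted p = 0.0492). Between the meals on antibiotic water Fasn differed by -0.58 ± 0.34 (adjusted p = 0.271). Fast food antibiotic replicate 2, at 448 CPM, was the only library of its group above 277 CPM. Without it the Fasn difference was -1.03 with an adjusted p of 0.0193, and without all 3 libraries of high acute phase score it was -1.09 (adjusted p = 0.0343).

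Elovl6 (ENSMUSG00000041220, chromosome 3: 129532355 to 129638495) encodes the elongase that carries palmitate to stearate. Its CPM was 30.6, 60.1, 68.0 and 71.7 with fast food and antibiotic, and 47.0, 47.1, 34.6 and 65.8 with chow and antibiotic. With fast food and control water it was 30.6, 36.2, 42.8 and 34.5 CPM, and with chow and control water 82.8, 81.9, 51.6 and 68.1 CPM. On control water every fast food library was below every chow library, with means of 36.0 ± 5.07 and 71.1 ± 14.6 CPM (SD, n = 4 each). The log2 fold change of -0.98 ± 0.24 missed the threshold in edgeR over all groups (SE, adjusted p = 0.0857). It passed with DESeq2 (-0.97, adjusted p = 0.0095) and in a fit to these 2 groups alone (-0.96, adjusted p = 0.00988). Leaving out single libraries gave -1.11 to -0.90 with adjusted p 0.0815 to 0.229.

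On antibiotic water the meal difference of Elovl6 was 0.25 ± 0.24 (SE, edgeR adjusted p = 0.506). The interaction of 1.23 ± 0.34 lay just outside the threshold (adjusted p = 0.0528). It passed with DESeq2 (1.19, adjusted p = 0.0147) and without the 3 libraries of high acute phase score (1.27, adjusted p = 0.0447). It also passed on 4 of the 16 omissions of 1 library (1.19 to 1.44, adjusted p 0.0141 to 0.0489). The libraries left out were replicates 1 and 2 of fast food with antibiotic, replicate 4 of chow with antibiotic and replicate 3 of chow with control water. The difference between the waters was 0.68 ± 0.24 with fast food (adjusted p = 0.094) and -0.55 ± 0.24 with chow (adjusted p = 0.106). The first passed without fast food antibiotic replicate 1 (0.89, adjusted p = 0.0306), whose 30.6 CPM was the lowest of its group. The second passed without chow antibiotic replicate 4 (-0.70, adjusted p = 0.0491).

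Scd1 (ENSMUSG00000037071, chromosome 19: 44394455 to 44407879) encodes stearoyl-CoA desaturase 1, which puts the first double bond into stearate and palmitate. Its CPM was 1264, 95.0, 4470 and 1421 with fast food and antibiotic, and 112, 44.4, 508 and 73.8 with chow and antibiotic. On control water, fast food livers held 1238, 2013, 859 and 1195 CPM and chow livers 1443, 1510, 985 and 4553 CPM. The chow antibiotic libraries were all below the 8 control water libraries. Between the chow antibiotic and chow control groups, 24.8% of all tested genes showed no overlap. Fast food antibiotic replicate 2 lay among the chow antibiotic libraries, while replicates 1, 3 and 4 of its group lay within the control water range (859 to 4553 CPM).

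With the chow meal, Scd1 was 11.5-fold lower with antibiotic water (log2 fold change -3.52 ± 1.03, SE, edgeR adjusted p = 0.026). That call was lost without chow antibiotic replicate 1 (adjusted p = 0.0674), replicate 2 (0.0626) or replicate 4 (0.0652), and without chow control replicate 4 (-2.80, adjusted p = 0.0752). Without chow antibiotic replicate 3 the difference was -4.78 (adjusted p = 0.01). Within the libraries of low ribosomal-like share the difference was -3.16 (adjusted p = 0.0881), and within those of high share -4.63 (adjusted p = 0.156), with 2 libraries per group on each side. Between the meals on antibiotic water, Scd1 was 9.79-fold higher after fast food (3.29 ± 1.02, adjusted p = 0.0493), and the groups overlapped through fast food antibiotic replicate 2. Without that library the difference was 3.68 with an adjusted p of 0.0114, and without chow antibiotic replicate 3 it was 4.56 with an adjusted p of 0.0234. The call was lost without chow antibiotic replicates 1, 2 or 4 (adjusted p 0.106, 0.108 and 0.113) and without fast food antibiotic replicates 1, 3 or 4 (0.0731, 0.156 and 0.0889). The difference was 2.32 without fast food antibiotic replicate 3 and 2.96 to 3.43 on the other 5 of these omissions. The call was also lost without the filter on low counts (3.28, adjusted p = 0.0792), in a fit to the 2 groups alone (3.28, adjusted p = 0.156), with the replicate number as a block (3.29, adjusted p = 0.0606) and within the high-share libraries (3.95, adjusted p = 0.208).

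On control water the meal difference of Scd1 was -0.68 ± 0.94 (SE, edgeR adjusted p = 0.854), and with fast food the water difference was 0.45 ± 0.93 (adjusted p = 0.803). The interaction of 3.97 ± 1.37 did not pass (adjusted p = 0.118). It passed with DESeq2 (3.94, adjusted p = 0.0327), without fast food antibiotic replicate 2 (4.35, adjusted p = 0.0322) and with the ribosomal-like split as a model term (5.38, adjusted p = 0.047). The related desaturase genes were far lower, Scd2 at 1.70 to 7.42 CPM and Scd3 and Scd4 at 0 to 5 summed counts per group. How reads shared among these similar copies were counted is not stated in the labels.

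Adipocyte transcripts were measured beside Scd1, since fat tissue also expresses it strongly. Over 8 marker genes the summed level was 26.6 to 249 CPM with fast food and antibiotic, 21.4 to 32.6 with chow and antibiotic, 244 to 432 with fast food and control water, and 136 to 208 with chow and control water. Of the 3 markers with enough counts to test, Car3 and Cidec, which hepatocytes also express, were called lower with antibiotic in the chow groups and higher with fast food on antibiotic water, and Fabp4 was not called in either. In these 2 comparisons 23.8% and 13.7% of all genes were called. The markers with too few counts to test were low. Lep and Retn had no count in any library, Plin1 had at most 5 summed counts in a group, and Adipoq had at most 0.209 CPM. Cfd had 54 summed counts with fast food and control water, at most 1.37 CPM. It had 10 with fast food and antibiotic, 3 with chow and control water and 2 with chow and antibiotic.

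**Figure D2:**
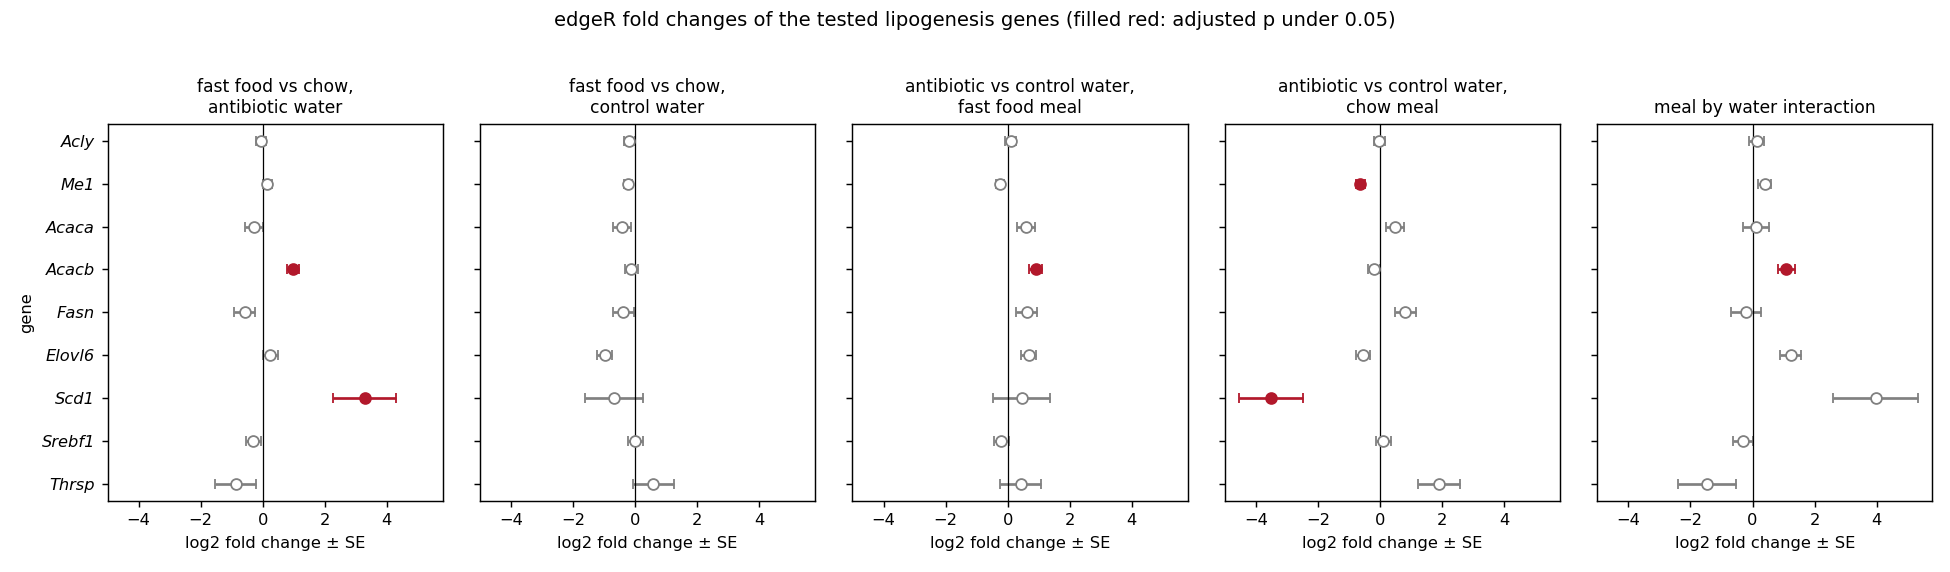
Log2 fold changes of the 9 tested genes in the 4 comparisons and the interaction, from edgeR, with bars of 1 SE. Filled red points have an adjusted p under 0.05 over all 13180 genes: Acacb and Scd1 for the meal on antibiotic water, Acacb for the water with fast food, Me1 and Scd1 for the water with chow, and Acacb for the interaction.

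Srebf1 (ENSMUSG00000020538, chromosome 11: 60199089 to 60222581) encodes SREBP-1, the transcription factor that insulin works through in this pathway. Its CPM was 21.3, 42.3, 44.9 and 33.2 with fast food and antibiotic, and 54.7, 50.9, 43.0 and 26.1 with chow and antibiotic. With fast food and control water it was 37.2, 46.1, 37.1 and 42.9 CPM, and with chow and control water 34.5, 33.1, 41.7 and 52.7 CPM. All groups overlapped, and the log2 fold changes ran from -0.30 to 0.11 with adjusted p of 0.404 or more (edgeR). Exons of Rai1 on the opposite strand overlap Srebf1 and held 2410 counts over all libraries, and the labels do not say whether the counting used strand. SREBP-1 is activated by proteolysis, which transcript counts do not measure.

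Thrsp (ENSMUSG00000035686, chromosome 7: 97412938 to 97417730) encodes Spot 14, a small protein whose transcript follows lipogenic stimuli in rodent liver. Its CPM was 11.3, 103, 46.8 and 11.0 with fast food and antibiotic, and 113, 131, 41.0 and 32.0 with chow and antibiotic. On control water, fast food livers held 22.0, 42.8, 28.5 and 35.1 CPM and chow livers 11.4, 19.7, 26.2 and 27.1 CPM. Every chow antibiotic library was above every chow control library, with means of 79.2 ± 50.0 and 21.1 ± 7.28 CPM (SD, n = 4 each). Of the 9 tested genes 3 (Me1, Scd1 and Thrsp) separated in that comparison, where 24.8% of all genes did. The Thrsp difference of 1.90 ± 0.68 missed the threshold (SE, edgeR adjusted p = 0.0607). It passed with DESeq2 (1.93, adjusted p = 0.0187), in a fit to the 2 groups (1.92, adjusted p = 0.0423) and without chow antibiotic replicate 4 (2.18, adjusted p = 0.0448). It also passed without the 3 libraries of high acute phase score (2.13, adjusted p = 0.032) and with the ribosomal-like share as a covariate (2.09, adjusted p = 0.0445).

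Between the meals on antibiotic water Thrsp differed by -0.87 ± 0.66 (SE, edgeR adjusted p = 0.402). Fast food antibiotic replicates 1 and 4 held the lowest Thrsp of all 16 libraries and replicate 2 one of the 3 highest values. Without the 3 libraries of high acute phase score the meal difference was -2.03 (adjusted p = 0.0455). The part of the acute phase score in this difference was not tested.

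Pnpla3 (ENSMUSG00000041653, chromosome 15: 84167837 to 84187236) encodes a hydrolase of lipid droplets whose transcription SREBP-1c induces. It was close to undetected. The 4 libraries of a group held 5 counts in all with fast food and antibiotic, 5 with chow and antibiotic, 12 with fast food and control water and 17 with chow and control water. Single libraries held 0 to 7 counts, at most 0.751 CPM, where 3 counts correspond to 0.148 to 0.426 CPM, so a difference between the groups was not detectable at this depth.

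**Figure D3:**
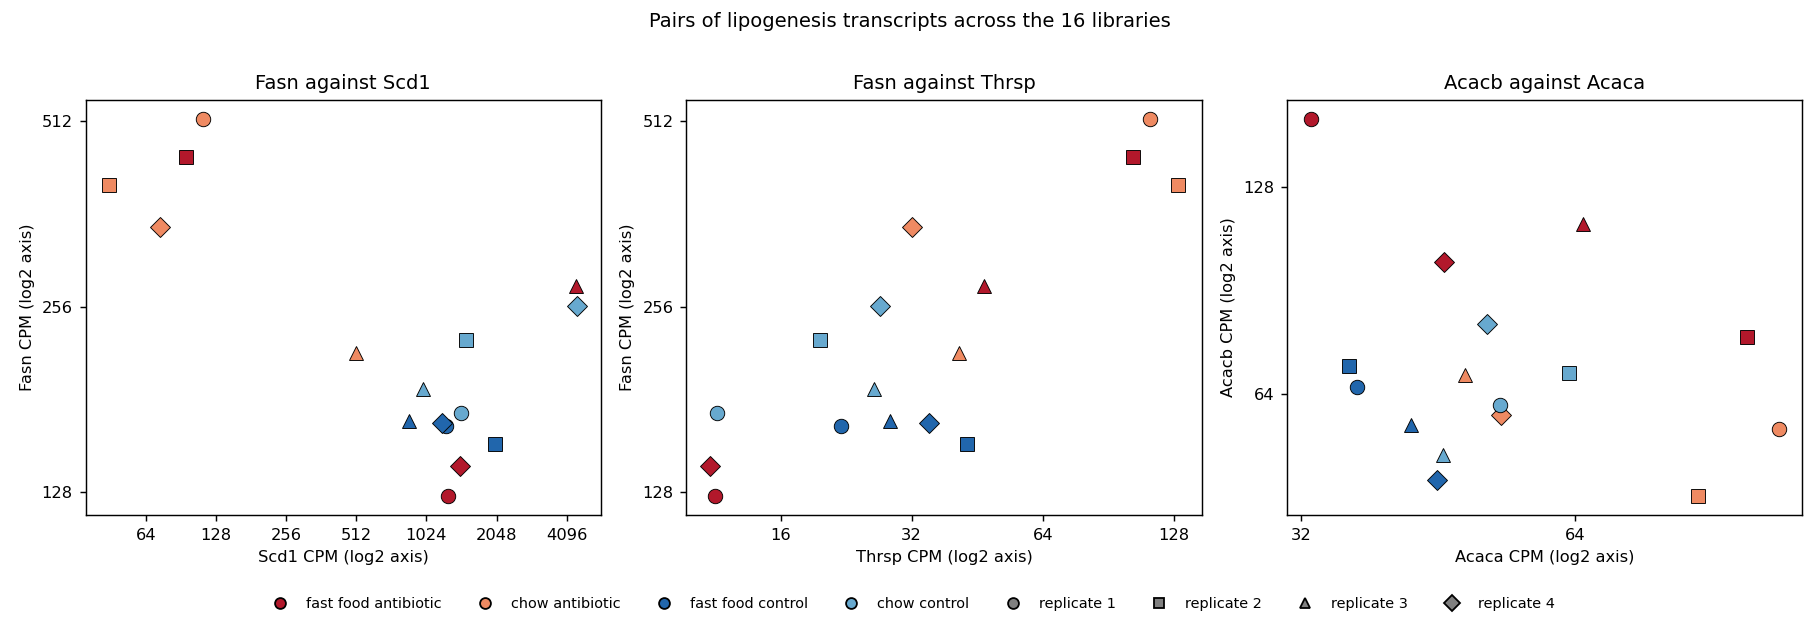
Pairs of genes across the 16 libraries, each axis in TMM-scaled CPM on a log2 scale. Colours give the group and shapes the replicate. On the left the chow antibiotic libraries and fast food antibiotic replicate 2 (95.0 CPM Scd1, 448 CPM Fasn) lie at low Scd1, and on the right the fast food antibiotic libraries (77.6 to 161 CPM Acacb) lie above those of the chow antibiotic (45.5 to 68.3 CPM) and fast food control (48.1 to 70.5 CPM) groups, while chow control replicate 4 reaches 81.1 CPM.

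Fast food antibiotic replicate 2 lay with the chow antibiotic libraries in Scd1 (95.0 CPM), Fasn (448 CPM), Acaca (98.8 CPM) and Thrsp (103 CPM), as it did in the acute phase and PPAR-alpha scores. In Acacb it was the lowest of its group at 77.6 CPM, yet above every library of the chow antibiotic and fast food control groups. Without it the meal comparison on antibiotic water called 3 of the 9 genes, against 2 with it. Calls also rose outside the 9, to 25 from 12 among the 69 other pathway genes described below.

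By Pearson correlation of log2 CPM over 16 libraries, 10429 genes were set against the mean standardised log2 CPM of the 9 tested genes. Those 9 did not share 1 pattern, so their mean need not follow any of them. Scd1 had r = -0.70 with Fasn, -0.64 with Thrsp and -0.61 with Acaca. It had 0.56 with Me1, 0.45 with Acacb, and -0.12 to 0.06 with Acly, Srebf1 and Elovl6. The genes most like the mean were Thumpd2 (r = 0.78), Chic1 (0.77), Zfand1 (0.76), Zfp65 (0.73), Tsn (0.71) and D3Ertd254e (0.70). After the group means were subtracted they were Acat2 (0.88), Hdac3 and Pdk1 (both 0.87), Top1mt (0.86), Ogfod1 (0.85) and Timd2 (0.84). Acat2 encodes the cytosolic acetoacetyl-CoA thiolase of the sterol pathway. A look at single genes, added after their values were seen, gave Acaca and Rdh11, a retinol dehydrogenase, as closest to Fasn (r = 0.92 for both), and Tmem135 (0.96) and Gpam (0.93) as closest to Scd1. The 16 points share groups and sequencing depth, so these r values only describe the libraries.

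Around the 10 genes, 7 lists of 69 other genes of the pathway were counted, all 69 with enough counts to test. Between the meals on antibiotic water 7 rose and 5 fell (17.4%, against 13.7% of all genes). Between the waters with chow 8 rose and 14 fell (31.9%, against 23.8%), and with fast food 4 rose and 1 fell (7.25%, against 5.99%). The interaction was called for 5 (7.25%, against 3.94%), and the meal on control water for 0 (against 0.577%), where DESeq2 called 1. The 69 genes had a median log2 fold change of -0.04 for the meal on antibiotic water and -0.04 for the water with chow. Without fast food antibiotic replicate 2 the count for the meal on antibiotic water was 25 in place of 12, and with the fast food meal the count of 5 for the water was 0 to 5 when single libraries were left out, 0 without fast food control replicates 1, 2 or 3. The count of 5 for the interaction was 1 to 14 on such omissions, with 14 reached without fast food antibiotic replicate 2.

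Other elongases and desaturases had calls in 3 of the 5 tests. With chow, 5 of 12 fell and 1 rose with antibiotic water, where 23.8% of all genes were called, among them Elovl5 (-2.90), Elovl2 (-2.41) and Elovl3 (-5.48), elongases of polyunsaturated and very long chains, and the dehydratase gene Hacd3 (-0.84). These 4 kept their calls without any single library (adjusted p up to 0.00325). On antibiotic water 5 of 12 rose with fast food, where 13.7% of all genes were called, among them Fads2 (2.27), Fads1 (0.66), Elovl5 (2.17) and Elovl2 (1.93), and these kept their calls without any single library as well (adjusted p up to 0.0428). Elovl5 was 914, 137, 806 and 752 CPM with fast food and antibiotic, and 95.4, 105, 183 and 197 CPM with chow and antibiotic. On control water it was 838, 934, 706 and 676 CPM with fast food, and 1013, 1088, 937 and 1286 CPM with chow. As in Scd1, fast food antibiotic replicate 2 was the one library of its group in the chow antibiotic range. The interaction, called for 3.94% of all genes, was called for Hacd3 (0.80), Elovl2 (2.41), Elovl5 (2.62) and Elovl3 (3.88), and of these Hacd3 kept its call without any single library while the others reached adjusted p of 0.0557, 0.0644 and 0.0968.

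**Figure D4:**
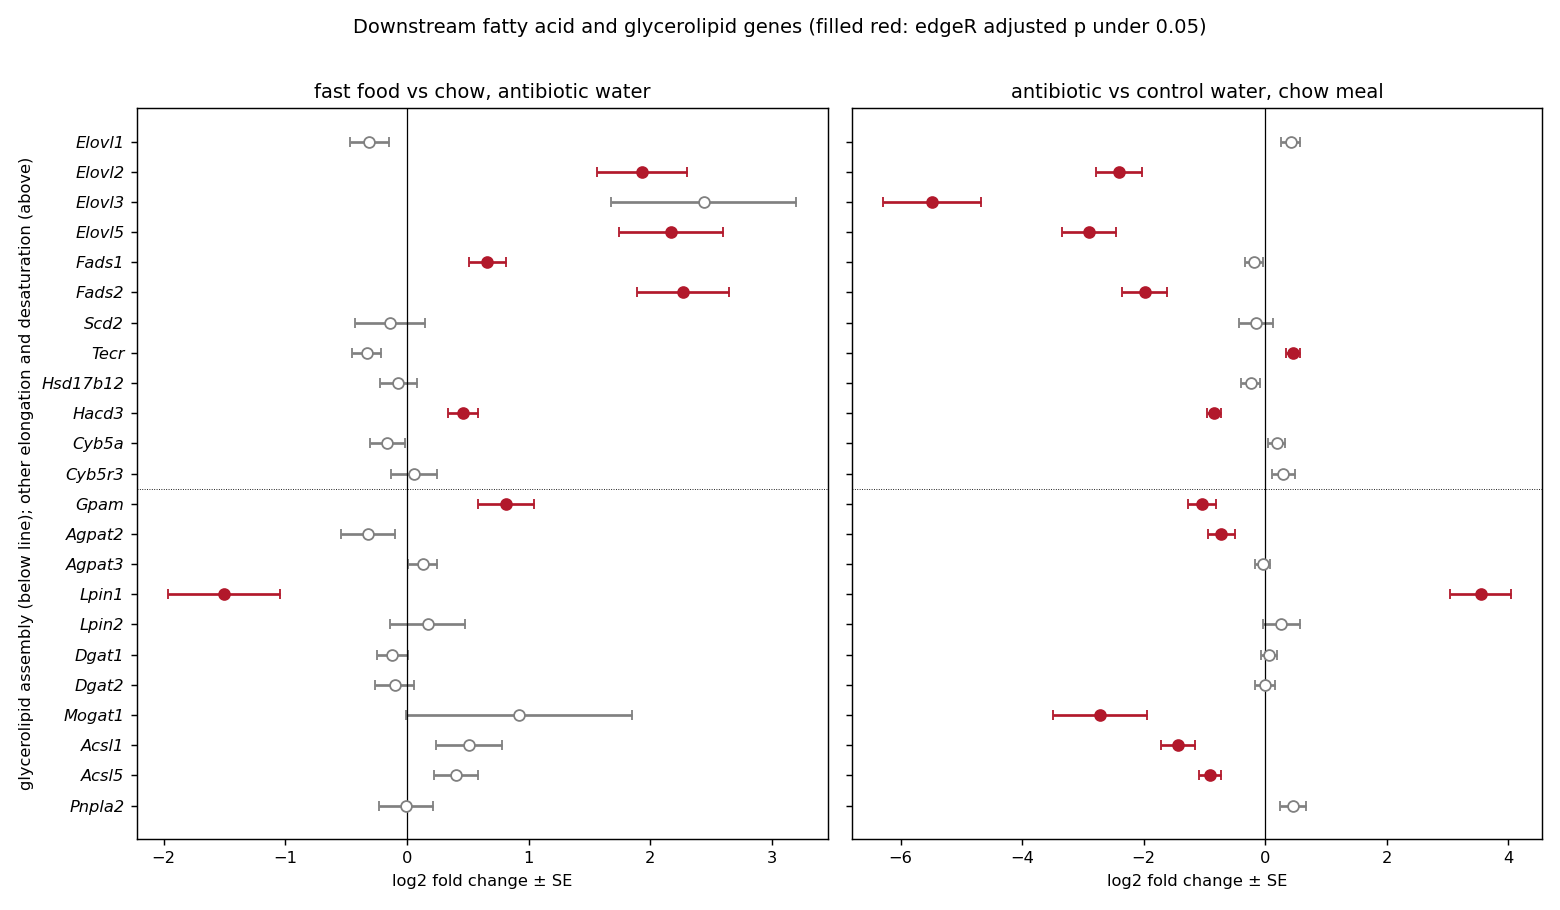
Log2 fold changes ± SE of the other elongation and desaturation genes (above the line) and glycerolipid assembly genes (below it), for the meal on antibiotic water on the left and the water with chow on the right. Filled red points have an edgeR adjusted p under 0.05. Fads2, Elovl5 and Elovl2 are higher after fast food on the left (1.93 to 2.27) and lower with antibiotic on the right.

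Glycerolipid assembly genes, which join fatty acids to glycerol, gave 5 falls and 1 rise among 11 with antibiotic water in the chow groups, against 23.8% of all genes called. The phosphatidate phosphatase gene Lpin1 rose (3.55), and Acsl1 (-1.44), Acsl5 (-0.90), both acyl-CoA synthetases, and the glycerol-phosphate acyltransferase gene Gpam (-1.04) fell, each call holding without any single library (adjusted p up to 0.0195). On antibiotic water Gpam was higher after fast food (0.81) and Lpin1 lower (-1.50), and both calls were lost without any one of 6 of the 8 libraries compared (adjusted p up to 0.0986 for Gpam and 0.115 for Lpin1). With fast food, Lpin1 rose (1.84) and Acsl5 fell (-0.68) with antibiotic water, and these calls were lost on most omissions of 1 library (adjusted p up to 0.102 for Lpin1 and 0.114 for Acsl5). Of 7 sugar input genes, 2 were called with antibiotic in the chow groups (23.8% of all genes) and 3 for the meal on antibiotic water (13.7%). Pfkl, a phosphofructokinase, fell with antibiotic in the chow groups (-0.63) and was higher after fast food on antibiotic water (0.64). The pyruvate kinase gene Pklr, a ChREBP target, rose with antibiotic in the chow groups (1.34) and was lower after fast food on antibiotic water (-1.52), and Khk, for ketohexokinase, was lower there too (-0.99). The Pklr calls were lost on several omissions of 1 library (highest adjusted p 0.0868 for the water, without chow antibiotic replicate 2, and 0.0927 for the meal, with fast food antibiotic replicate 4 left out).

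Of 12 genes that process SREBP-1 or act beside it, 1 rose and 1 fell with antibiotic in the chow groups, Insig1 (2.18), whose product holds SREBP in the endoplasmic reticulum and which is itself an SREBP target, and Nr1h3 (-0.54), which encodes LXR-alpha. Insig1 was 328, 292, 284 and 159 CPM with chow and antibiotic, and 49.5, 49.8, 65.4 and 70.0 CPM with chow and control water, with no overlap. Such a separation was shown by 24.8% of all tested genes there. None of the 12 was called in the other 4 tests, and 2 of 12 lies below the 23.8% of all genes called in the chow groups. Of 9 insulin signalling genes, 3 rose and 0 fell with antibiotic in the chow groups, Igfbp1 (3.55) and Irs2 (1.88), both of which insulin is known to repress, and Foxo1 (0.69), and 3 rose with antibiotic in the fast food groups, Insr (0.53), Foxo1 (0.84) and Igfbp1 (3.14). The shares of all genes called there were 23.8% with chow and 5.99% with fast food. The calls of Igfbp1 and Irs2 in the chow groups held without any single library (adjusted p up to 0.0484), while those of Foxo1 and all 3 in the fast food groups did not (adjusted p up to 0.129). Of 9 carbon and NADPH supply genes, Idh1 (-0.65) and Slc25a1, the mitochondrial citrate carrier (-0.32), fell with antibiotic in the chow groups, and Tkt (-0.54) was lower after fast food on antibiotic water. These 2 of 9 and 1 of 9 lie near or below the 23.8% and 13.7% of all genes called, and so do the calls of the carboxylase control list in these comparisons. Slc25a1 lost its call on 6 of 8 omissions (adjusted p up to 0.128). Of 9 genes that control the carboxylases, Prkag1, an AMP kinase subunit, rose with antibiotic in the chow groups (0.45) and was lower after fast food on antibiotic water (-0.56), with an interaction of -0.63 (adjusted p = 0.0495, up to 0.108 without 1 library).

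Transcripts of other liver cells also moved with the water. Kupffer cell and macrophage markers were called lower with antibiotic for 6 of 7 genes in the chow groups, where 23.8% of all genes were called. In the fast food groups 4 of 7 were called lower, against 5.99% of all genes called. With the ribosomal-like share as a covariate, 0 of all genes were called for the water with fast food. The summed level of the macrophage markers was 143 to 225 CPM with fast food and antibiotic, 141 to 186 with chow and antibiotic, 273 to 372 with fast food and control water, and 225 to 655 with chow and control water. Hepatocyte markers were called higher with antibiotic in the chow groups for 4 of 7, against 23.8% of all genes called. After fast food on antibiotic water 4 of 7 were called lower, against 13.7% of all genes called. The part of these shifts in the lipogenesis values was not tested.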

How the data were processed

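Liver RNA of 16 samples was made into poly(A) libraries (Illumina TruSeq) and read as single reads of 50 bases, per the labels' protocols. The authors deposited raw counts of reads per gene. Per the submitters' processing notes the build was GRCm38.p6 and the tools were FastQC and cutadapt, STAR, HTSeq, edgeR and DESeq2, with no versions or roles. The labels state neither the annotation release nor the strand setting, nor how reads with several matches were counted.

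Genes of the deposited counts passed filterByExpr (minimum count 10), 13180 of 25006. edgeR 4.0.16 in R 4.3.3 fitted 1 mean per group to all 16 libraries (TMM factors, robust quasi-likelihood), two-sided, with Benjamini-Hochberg adjustment over all 13180 genes and a threshold of 0.05. The SE of a log2 fold change is its size divided by the square root of F. Gene lengths are unions of annotated exons (GENCODE M21). A result is called lost or kept by that threshold. Of 178 listed genes 177 were in the table. The 10 genes, the lists, the alternatives and the naming rule (all 10 genes, and up to 4 called genes of lowest p per wider list and comparison) were chosen with earlier results of these data known. Alternatives were DESeq2 1.42.0, RLE factors, no count filter or a mean of at least 10 counts per group, fits to just the groups compared, the replicate number as a block, omission of each library or of 3 libraries with high acute phase scores, and 3 treatments of the ribosomal-like share. The method was tested on simulated counts for the meal on antibiotic water alone. It recovered 58% of 100 genes changed by 1 on the log2 scale and 86% of 100 changed by 2, with 4 false calls. A difference of such size can therefore be missed.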

Additional observations from a re-analysis of the deposited data

Results flagged for a closer look

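Over the 40 sets of 4 libraries that 10 genes in 4 groups make, a highest or lowest library was singled out where its gap to the next, as a part of the range, exceeded Dixon's critical value, a limit that chance passes in about 1 of 20 sets. Scd1 met it in 2 groups, and 2 of 40 sets is about that rate. Chow antibiotic replicate 3 had 508 CPM of Scd1, above the other 3 libraries of its group, and chow control replicate 4 had 4553 CPM, above the other 3 of its group (gap ratio 0.853 in both). Acacb was singled out because its meal effect differed between antibiotic and control water by the test of that difference (log2 1.09, edgeR adjusted p = 0.0391).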

How the results depend on the processing

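Replicate numbers did not pair the libraries: deviations of same-numbered libraries from their group means correlated at -0.222 to 0.191, and not every library matched its own number best. With the number as a block the counts of called lipogenesis genes were 1 for the meal on antibiotic water (2 without the block) and 0 for the interaction (1 without it). The counts for the meal on antibiotic water were 1 with no filter on low counts, 0 in a fit to the 2 groups, 4 without the 3 high acute phase libraries and 0 within the high-share libraries. The omission of the 3 libraries also raised the calls over all genes, to 3206 of 13253 from 1800 of 13180. For the meal on control water DESeq2 and the fit to 2 groups each gave 1 in place of 0. For the water with chow, DESeq2 and the fit to 2 groups each gave 4 in place of 2, and the low-share and high-share libraries alone gave 1 and 0. For the water with fast food, the ribosomal-like share as a covariate or as a split gave 0 in place of 1. For the interaction DESeq2 gave 3 in place of 1, the omission of the 3 libraries 2 and the covariate 0. The split as a model term gave 1 there, Scd1 (adjusted p = 0.047) in place of Acacb. Leaving out 1 library at a time gave 1 to 3 for the meal on antibiotic water, 0 for that on control water, 1 to 3 for the water with chow, 0 to 2 for the water with fast food and 0 to 3 for the interaction. The cause of these shifts was not tested.

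Sign changes were seen only where log2 differences were not called. For the meal on control water, Srebf1 was -0.066 without the 3 libraries, -0.18 with the covariate and with the split, and -0.21 within the low-share libraries. For the meal on antibiotic water, Acly was 0.013 with the covariate and 0.007 with the split, and within the high-share libraries Me1 was -0.078 and Elovl6 -0.077. For the water with chow, Acly was 0.054 without the 3 libraries, 0.016 with the covariate and 0.051 within the high-share libraries. For the water with fast food, Scd1 was -0.32 with the replicate block, Srebf1 0.19 with the covariate and 0.10 with the split, and Thrsp -0.46 without the 3 libraries. For the interaction, Acly was -0.011 and Acaca -0.47 without the 3 libraries, and Srebf1 was 0.005 with the covariate. Omissions of 1 library spanned 0 for the meal on control water in Acacb (-0.22 to 0.01), Scd1 (-0.95 to 0.034) and Srebf1 (-0.077 to 0.18), and on antibiotic water in Acly (-0.22 to 0.076) and Me1 (-0.012 to 0.22). They did so for the water with chow in Acly (-0.17 to 0.14), with fast food in Scd1 (-0.52 to 0.84) and Thrsp (-0.46 to 0.75), and for the interaction in Acly (-0.051 to 0.25), Acaca (-0.23 to 0.33) and Fasn (-0.66 to 0.019).

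RLE factors and a mean of at least 10 counts in every group changed no call of a lipogenesis gene. All genes called for the meal on control water numbered 305 with DESeq2 (55.4% of them higher) and 365 in the fit to 2 groups, against 76 (42.1% higher), and 22 and 17 with the covariate and the split. For the meal on antibiotic water they were 229 in the fit to 2 groups and 1 within the high-share libraries, against 1800. The high-share libraries gave 3 for the water with chow, against 3138. With fast food DESeq2 gave 1532 for the water and the covariate and the split 0, against 790. For the interaction DESeq2 gave 1107, the covariate 133 and the omission of the 3 high acute phase libraries 1851, against 519. Of the 69 wider genes, the fit to 2 groups called 6 for the meal on control water (0 in the fit to all groups) and 1 on antibiotic water (12), where the omission of the 3 libraries gave 25. For the interaction (5) DESeq2 called 10, the replicate block 2 and the omission of the 3 libraries 16. Both share models called 0 for the water with fast food (5). Fits within 1 side of the split rest on 2 to 4 libraries per group and could not be made for the water with fast food or for the interaction. Depth left Pnpla3 untested.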
